A study of Mus musculus with 22 samples.

Results

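Cadherins and non-clustered protocadherins are single-pass or lipid-anchored adhesion proteins that join neighbouring cells through calcium-binding repeats. The genes described here are those whose name is Cdh or Pcdh followed by a number, with Pcdh11x also taken, and they number 33 of the 20565 genes in the tables. The clustered protocadherins, whose names carry a cluster letter, were not taken. The choice was made on gene names and used no measured value, but earlier results of these data were known when it was made.

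RNA of 22 mice was sequenced in bulk, in 6 females labelled cKO, 5 females labelled WT, 6 males labelled cKO and 5 males labelled WT. All mice carried a floxed Smc3 gene, which encodes a core subunit of the cohesin ring, and all received tamoxifen by gavage 6 weeks before they were taken at 8 weeks of age. The cKO mice were Camk2a-cre/ERT2+ and the WT mice Camk2a-cre/ERT2-, and the series asks whether the role of SMC3 differs between the sexes. The Camk2a promoter is used to drive this tamoxifen-dependent recombinase mainly in excitatory neurons of the forebrain. Whether inhibitory neurons, glia and vessel cells of a cKO mouse kept the gene was not measured here. No group carried the recombinase without the floxed gene, so an effect of the recombinase itself and one of the floxed gene cannot be told apart.

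Smc3, the targeted gene, was higher in every library labelled cKO. It measured 121 to 149 CPM (counts relative to library size) in females labelled cKO against 65.5 to 83.6 CPM in females labelled WT, and 131 to 172 CPM in males labelled cKO against 71.8 to 95.6 CPM in males labelled WT. A count over the whole gene does not show whether the floxed stretch was removed, so the group names below are those of the labels. Totals were 13832715 to 16896239 counts per library in females and 12771354 to 15028342 in males. The labels disagree on the region, with hypothalamus in the titles and prefrontal cortex given as the tissue. All 8 genes of a cortex list averaged at least 10 CPM, whereas 0 of 9 hypothalamic neuron genes did and 5 of these averaged under 1 CPM.

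Classical cadherins bind the same or a related cadherin on the facing cell, and their cytoplasmic tails hold catenins that connect them to actin. Type I members such as N-cadherin give strong adhesion at synapses, and type II members are found in restricted sets of neurons and are known for sorting cells and matching axons with targets. Delta-protocadherins have longer or shorter tails without a catenin site and are known in brain for axon growth, synapse remodelling and regulation of cadherin adhesion. Cohesin shapes chromatin loops together with the DNA-binding protein CTCF, and the clustered protocadherins are a well-known set of genes under its control in neurons.

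The 3 most abundant members per length in the WT libraries were protocadherins. The mean level was 25.03 ± 4.80 CPM per kb of exon for Pcdh1 (SD, 10 WT libraries), 18.8 ± 4.82 for Pcdh10 and 17.9 ± 3.31 for Pcdh8. Cdh13, encoding the lipid-anchored T-cadherin, came next at 15.4 ± 1.24 CPM per kb, and Cdh22, a type II cadherin first known from pituitary and brain, at 14.1 ± 3.77 CPM per kb. Cdh2, encoding N-cadherin, was the leading type I gene at 10.2 ± 2.10 CPM per kb. In the order of all 33 levels, 26 of 32 neighbouring pairs lay closer than the larger of their SDs, so the order within such runs is not resolved. The steps wider than that were Pcdh1 over Pcdh10, Pcdh17 over Cdh2, Pcdh19 over Cdh4, Cdh5 over Pcdh15, Pcdh15 over Pcdh18 and Cdh15 over Cdh26.

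At the low end were members known from other tissues. Cdh26 averaged 0.188, Cdh23 0.157, Cdh1 0.0928, Cdh3 0.0674 and Pcdh12 0.0496 CPM per kb in WT libraries. Cdh1 and Cdh3 encode the epithelial and placental cadherins, and Pcdh12 is known from endothelium. Cdh23 and Pcdh15 encode the partners of the tip link in hair cells of the inner ear. Pcdh15 stood at 1.63 ± 0.275 CPM per kb, above Cdh23 in these libraries. Low counts kept Cdh1, Cdh3 and Pcdh12 out of edgeR's tests within each sex and Cdh26 out of its male test, which left 30 members tested in females and 29 in males.

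**Figure D1:**
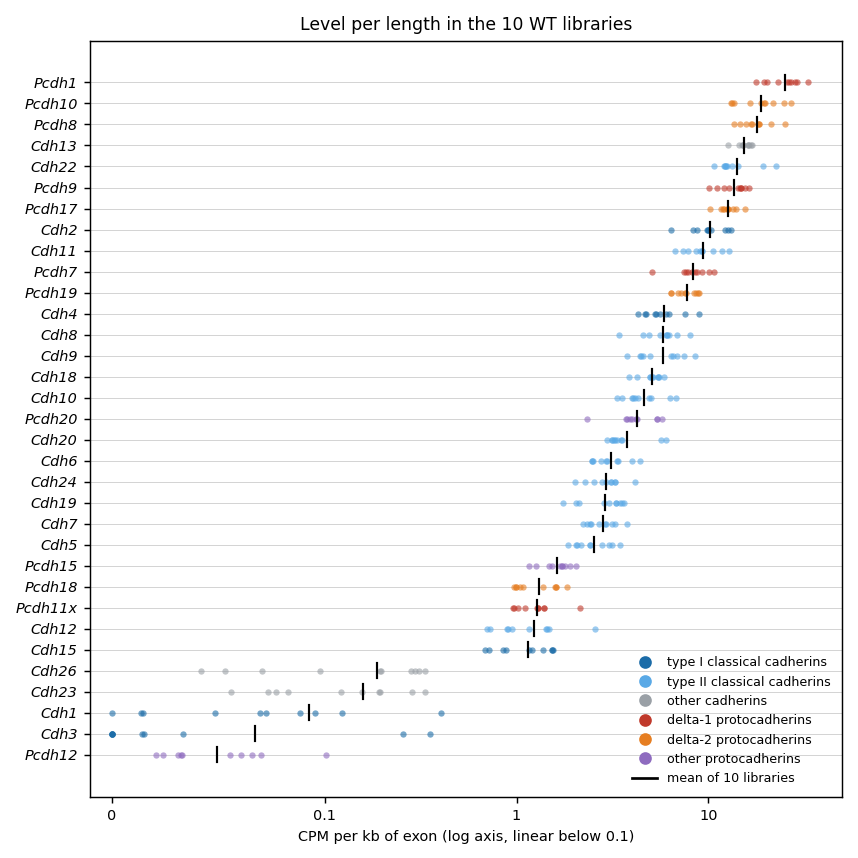
Level of each of the 33 members in the 10 WT libraries, as CPM per kb of exon on an axis that is logarithmic above 0.1 and linear below. Each point is a library, the bar is the mean and the colour gives the family list. Pcdh1 leads at a mean of 25.03, and 5 members stay under a mean of 0.2.

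In females, 4 members fell in libraries labelled cKO and none rose past the threshold, an adjusted p under 0.05 over all genes tested. They were the type II cadherins Cdh22 and Cdh24, the T-cadherin gene Cdh13 and the delta-2 protocadherin gene Pcdh19. These 4 make 13.3% of the 30 members tested, where 3.37% of all 16123 genes were called in either direction, 2.75% lower and 0.62% higher. The median log2 fold change of the members was -0.19, against 0.01 over all genes, and 22 of 30 members lay below 0, which is 73.3% where 47.1% of all genes did. The groups did not overlap for 2 members, Cdh22 and Cdh13, whereas every female cKO library lay below every WT library for 2.58% of all genes and above for 1.04%. DESeq2 called 6 members in females, where it called 5.18% of all genes, and in one edgeR fit of all 4 groups Cdh22 alone of the members passed. In bulk tissue, fewer cells of a type and less RNA per cell cannot be told apart.

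Medians of several cell type lists lay away from 0 in females, where 3.37% of all genes were called. The median log2 fold change was -0.23 over 11 excitatory neuron genes, 0.23 over 10 inhibitory neuron genes and 0.44 over 10 oligodendrocyte genes, with 0, 2 and 0 genes called. It was 0.72 over 8 genes of choroid plexus and ependyma and 0.31 over 8 leptomeningeal genes, with 0 called in either. The 2 inhibitory neuron genes called, Sst and Vip, were lower although the median of that list lay above 0. Summed excitatory markers ranged from 3818 to 5552 CPM in female cKO libraries and from 4231 to 7357 CPM in female WT libraries. Summed oligodendrocyte markers ranged from 4515 to 14711 CPM in female cKO libraries and from 3244 to 10511 CPM in female WT libraries. Summed choroid plexus and ependyma markers were 689.5 CPM in female cKO library 21, 38.2 to 122 CPM in the other female cKO libraries and 10.9 to 97.2 CPM in female WT libraries. Without library 21, 4 members passed in females, Cdh13, Cdh22, Pcdh19 and Pcdh20. Cdh24 was lost in that fit, at an edgeR adjusted p of 0.0851, and Pcdh20 was gained. Fits without 1 female library called 324 to 681 genes in all. In the cortex list 3 of 8 genes fell, namely Lamp5, Rasgrf2 and Emx1, where 2.75% of all genes did. No marker of these 5 cell type lists stood under a mean of 1 CPM, and their part in the member results was not tested.

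Among the type II cadherins, 2 of 13 fell in females, which is 15.4% where 3.37% of all genes were called. Cdh22 encodes PB-cadherin, and its level in female cKO libraries was lowest at 19.02, median 24.8 and highest at 29.8 CPM. In female WT libraries it stood at 44.6, 45.2, 46.2, 49.0 and 53.1 CPM. Every female cKO library thus lay below every female WT library. The log2 fold change was -0.94 (SE 0.12, edgeR adjusted p = 0.00068), the largest fall among the members.

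Cdh24, a type II cadherin whose human counterpart binds catenins, was the least abundant of the 4. In female cKO libraries it was lowest at 3.56, median 5.56 and highest at 7.22 CPM. The female WT libraries had 7.01, 7.92, 8.84, 10.2 and 10.8 CPM, so the groups met only where the highest cKO library passed the lowest WT library. The log2 fold change was -0.69 (SE 0.17, edgeR adjusted p = 0.0487). The call held when cKO library 23, WT library 25 or WT library 26 was left out. It was lost without any 1 of cKO libraries 20, 21, 22, 24 and 27 or WT libraries 16, 18 and 19, at adjusted p of 0.0584 to 0.123.

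The promoters of the called members found in the RefSeq table are shown to let the sequence upstream of the falling genes be read beside the values, together with that of Pcdh8, which had the smallest p among members in males. Each window runs from 250 bases before to 50 bases after the gene start on build GRCm38.p6, written 5′ to 3′ along the gene, and all 4 genes lie on the minus strand. Capitals mark the letters TATAAA and, on either strand, AGGGGGC, a core of the CTCF motif. The windows are chr2:165234688-165234987 for Cdh22, chr14:54641315-54641614 for Cdh24, chrX:133688944-133689243 for Pcdh19 and chr14:79771263-79771562 for Pcdh8.
Cdh22: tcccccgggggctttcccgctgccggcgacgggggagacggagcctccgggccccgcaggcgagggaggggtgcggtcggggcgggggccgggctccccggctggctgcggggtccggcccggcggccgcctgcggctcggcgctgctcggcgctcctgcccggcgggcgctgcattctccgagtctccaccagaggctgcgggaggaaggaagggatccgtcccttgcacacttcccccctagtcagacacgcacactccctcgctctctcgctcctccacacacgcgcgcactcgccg
Cdh24: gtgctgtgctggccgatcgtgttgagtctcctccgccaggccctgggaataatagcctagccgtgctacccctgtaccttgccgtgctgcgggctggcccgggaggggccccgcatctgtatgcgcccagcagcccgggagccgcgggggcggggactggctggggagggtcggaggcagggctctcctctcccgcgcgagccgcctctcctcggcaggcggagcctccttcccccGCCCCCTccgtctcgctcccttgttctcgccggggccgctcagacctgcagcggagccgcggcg
Pcdh19: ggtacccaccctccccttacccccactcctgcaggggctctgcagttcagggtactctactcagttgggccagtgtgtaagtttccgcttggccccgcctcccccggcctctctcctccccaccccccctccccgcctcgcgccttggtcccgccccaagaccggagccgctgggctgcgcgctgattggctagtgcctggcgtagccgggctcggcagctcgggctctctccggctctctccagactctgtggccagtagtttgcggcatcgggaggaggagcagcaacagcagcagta
Pcdh8: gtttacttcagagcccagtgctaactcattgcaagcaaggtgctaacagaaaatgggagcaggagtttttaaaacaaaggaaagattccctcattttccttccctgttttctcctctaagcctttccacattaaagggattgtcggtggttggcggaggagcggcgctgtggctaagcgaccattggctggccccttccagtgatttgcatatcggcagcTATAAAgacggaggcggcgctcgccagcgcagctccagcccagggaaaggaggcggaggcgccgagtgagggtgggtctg

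The windows of the 3 genes called in females were richer in G and C than that of Pcdh8. They held 76.3% G and C with 38 CpG pairs for Cdh22, 73.3% with 30 for Cdh24 and 67.7% with 18 for Pcdh19. The Pcdh8 window held 54.3% with 14 CpG pairs, and the median over all 32851 RefSeq promoters was 52.7% with 7. Among members not called in females, windows ranged from 37.7% with 2 CpG pairs for Cdh10 to 65.0% with 26 for Pcdh17. The Pcdh17 window thus held more CpG pairs than that of Pcdh19. In the Pcdh8 window the TATAAA letters begin 30 bases before the gene start. The same letters on either strand occur in 13.6% of all promoters and in 2 of 25 windows of the 22 members matched, those of Pcdh8 and Pcdh15. The CTCF core AGGGGGC, searched on both strands, occurs in 10.6% of all promoters and in 6 member windows, of Cdh6, Cdh8, Cdh24, Cdh26 and Pcdh9. Pcdh9 has 2 windows that overlap, and both are counted. The cyclic AMP response element TGACGTCA, in 1.79% of all promoters, was in no member window, and its shorter core TGACG, contained in it and present in 20.8% of all promoters, was in those of Cdh8, Pcdh9 and Pcdh10.

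Cdh9, a type II cadherin known from hippocampal mossy fibre synapses, was lowest at 9.53, median 13.51 and highest at 19.7 CPM in female cKO libraries. Female WT libraries had 15.5, 15.7, 23.03, 26.4 and 30.2 CPM, and the groups overlapped. Its log2 value of -0.68 (SE 0.22) did not pass, with an edgeR adjusted p of 0.119, and DESeq2 gave 0.0450. The authors' deposited table, from the same counts and with DESeq2 named as a tool, lists an adjusted p of 0.0529 for it. Cdh11, the most abundant type II gene by counts and known from mesenchyme, ranged from 56.4 to 95.04 CPM in female cKO libraries and from 76.7 to 114 CPM in female WT libraries, with a log2 value of -0.20 (SE 0.13, edgeR adjusted p = 0.4925).

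Cdh19, known in rat from Schwann cell precursors, had the highest log2 value of the type II genes, at 0.38 (SE 0.21, edgeR adjusted p = 0.422). Its level was lowest at 11.5, median 17.2 and highest at 23.5 CPM in female cKO libraries, against 7.52, 12.2, 14.8, 15.1 and 15.5 CPM in female WT libraries. The other 8 type II genes, which include the endothelial cadherin gene Cdh5, had log2 values of -0.30 to 0.10 and none passed.

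Of the cadherins outside the classical types, Cdh13 fell in females. The gene lies on chromosome 8, and its product, T-cadherin, lacks a cytoplasmic tail and is known as a receptor for adiponectin. Its transcript was lowest at 107, median 140.4 and highest at 156 CPM in female cKO libraries. The female WT libraries had 168, 170.2, 180.0, 184 and 187 CPM, all above the highest cKO library. The log2 fold change was -0.36 (SE 0.09, edgeR adjusted p = 0.0381), and the call held when cKO library 20, 21 or 22 was left out. It was lost without any 1 of cKO libraries 23, 24 and 27 or of the 5 WT libraries, at adjusted p of 0.0509 to 0.112. Cdh26 had a log2 value of 1.23 (SE 0.55, edgeR adjusted p = 0.291) at means of 1.47 CPM in female cKO and 0.6254 CPM in female WT libraries. That value rests on few reads.

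None of the 3 type I genes tested passed in females. Cdh2 was lowest at 64.8, median 67.9 and highest at 77.6 CPM in female cKO libraries, against 66.7, 80.6, 80.8, 83.2 and 99.0 CPM in female WT libraries. A single WT library, that of animal 26, lay inside the cKO range. The log2 value was -0.24 (SE 0.09, edgeR adjusted p = 0.171), and without that WT library it passed at -0.31 with an adjusted p of 0.0326. Cdh4, encoding R-cadherin, had a log2 value of -0.36 (SE 0.13, edgeR adjusted p = 0.201), with 20.1 to 36.1 CPM in female cKO and 33.9 to 45.1 CPM in female WT libraries.

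Delta-2 protocadherins carry motifs in their tails that recruit the WAVE complex of actin regulators, and all 5 had log2 values below 0 in females. Pcdh19 was the member that fell. The gene lies on the X chromosome and is known in humans for an epilepsy of heterozygous females, and its protein acts together with N-cadherin. In female cKO libraries it was lowest at 54.9, median 59.2 and highest at 70.4 CPM. The female WT libraries had 67.1, 75.6, 80.1, 90.5 and 92.0 CPM, and only the highest cKO library exceeded the lowest WT library. The log2 fold change was -0.42 (SE 0.09, edgeR adjusted p = 0.0212), and it passed without any of the 11 female libraries.

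The other 4 delta-2 genes did not pass in females. Pcdh18 was lowest at 3.75, median 4.77 and highest at 5.28 CPM in female cKO libraries, against 5.19, 5.34, 5.82, 7.39 and 8.60 CPM in female WT libraries, with a log2 value of -0.49 (SE 0.16, edgeR adjusted p = 0.124). Pcdh10, known from amygdala circuits and the most abundant delta-2 gene, had 219 to 282 CPM in female cKO and 210.2 to 393 CPM in female WT libraries, at -0.28 (SE 0.13, edgeR adjusted p = 0.329). Pcdh8, whose product arcadlin is induced by neuronal activity and draws N-cadherin from the synapse in rat neurons, ranged from 61.6 to 92.9 CPM in female cKO and from 66.0 to 96.2 CPM in female WT libraries. Its log2 value was -0.13 (SE 0.12, edgeR adjusted p = 0.651), and Pcdh17 lay at -0.01.

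The 4 delta-1 protocadherins, whose tails hold a phosphatase binding site, ranged from -0.27 to 0.07 on the log2 scale in females and none passed. Pcdh1, the most abundant, had 155 to 255 CPM in female cKO and 172 to 249.6 CPM in female WT libraries. Of the remaining protocadherins, Pcdh20 was lowest at 12.7, median 15.1 and highest at 21.8 CPM in female cKO libraries. Female WT libraries had 20.3, 21.5, 22.96, 23.4 and 29.6 CPM, so only the highest cKO library entered the WT range. Its log2 value of -0.54 (SE 0.15) had an edgeR adjusted p of 0.0654. DESeq2 gave an adjusted p of 0.0131, and the authors' deposited table, from the same counts and with DESeq2 named, lists 0.0155. Without the cKO library of animal 21 it passed in edgeR at -0.64 with an adjusted p of 0.0249. Pcdh15 lay at -0.19 (SE 0.10, edgeR adjusted p = 0.406).

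**Figure D2:**
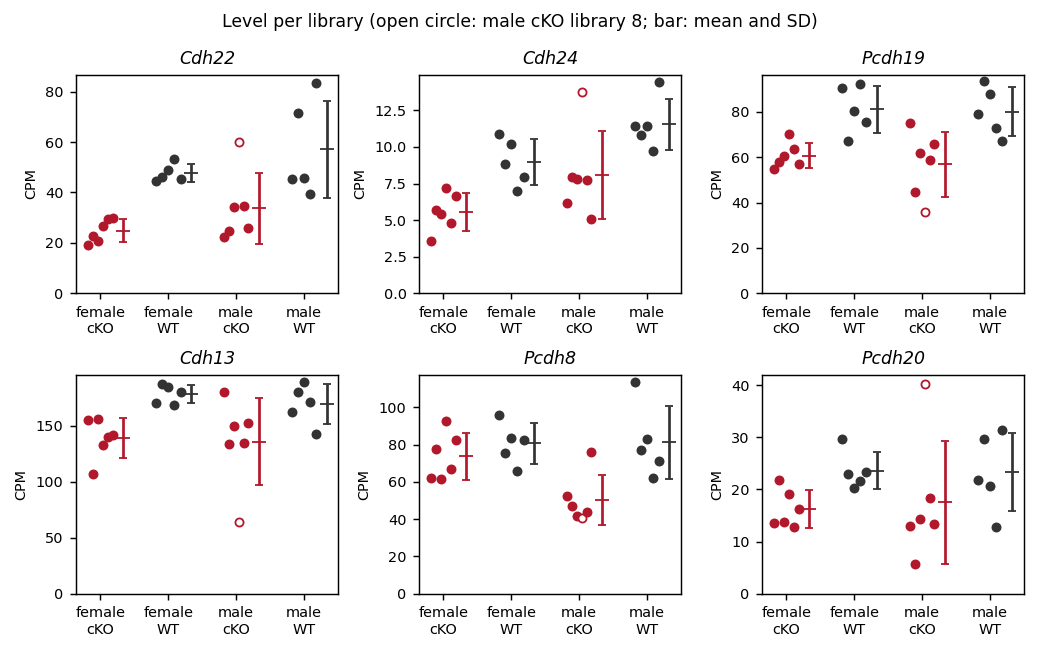
Level in CPM of 6 members in every library of the 4 groups, with the mean and SD beside the points and an open circle for the male cKO library of animal 8. Female cKO libraries lie below all female WT libraries for Cdh22 (19.02 to 29.8 against 44.6 to 53.1) and Cdh13, while the open circle tops the male cKO libraries for Cdh22, Cdh24 and Pcdh20.

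In males, 0 of 29 members passed edgeR's test, where 0.584% of all 16098 genes did, 0.503% lower and 0.0808% higher, and 4 members had an unadjusted p under 0.05, as did 9.49% of all genes. The members' median log2 value was -0.20 against 0.01 over all genes, and 24 of 29 lay below 0, which is 82.8% where 47.9% of all genes did. For no member were the male groups free of overlap, whereas 1.37% of all genes had every male cKO library below every WT library and 0.789% above. The median was -0.16 over the excitatory neuron genes and -0.22 over the cortex list in males, with 0 called in either. It was 0.52 over the leptomeningeal genes, 0 of 8 called, with sums of 59.7 to 190.0 CPM in male cKO and 49.4 to 98.0 CPM in male WT libraries. The part of these markers in the member values was not tested.

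Genes of the olfactory bulb set some male libraries apart. The male cKO library of animal 8 held 1732 CPM of a list of 7 genes of the olfactory bulb, against 134 to 445 CPM in the other male cKO libraries. The male WT libraries of animals 6 and 3 held 932 and 557 CPM, and the other male WT libraries 114 to 147 CPM. Female libraries had 125 to 196 CPM in cKO and 112 to 231 CPM in WT. The list was drawn up after the values of Cdhr1, a cadherin-related gene of mitral cells, had been seen. None of the 7 genes stood at 0 in library 8, and Tbx21, the transcription factor of mitral and tufted cells, had 15.6 CPM there. Of the 29 members tested, library 8 was above all other male cKO libraries for 13 and below them for 9, where 27.8% and 30.2% of all genes were. Its inhibitory neuron markers summed to 2352 CPM, above the 961 to 1247 CPM of the other male cKO libraries, and its excitatory markers to 3986 CPM, the lowest of the male cKO libraries. The part of this makeup in the male results was not tested.

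**Figure D3:**
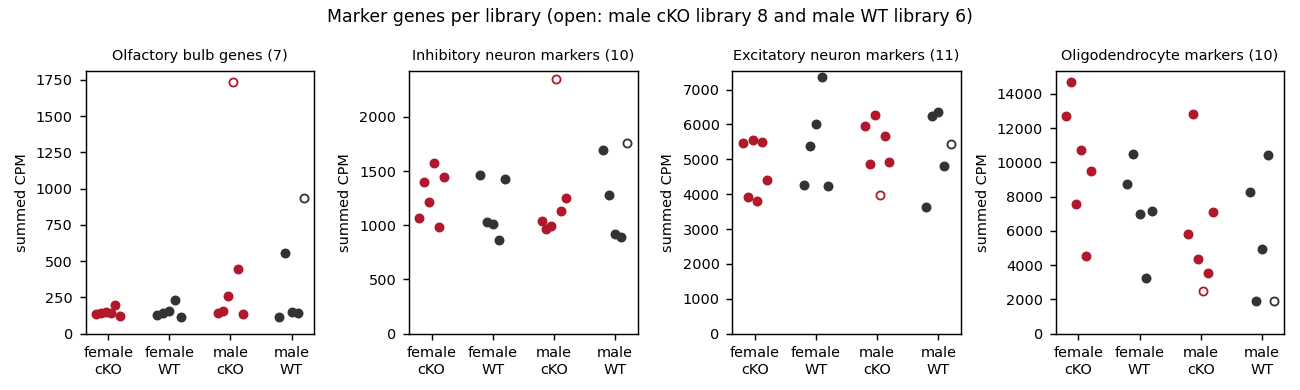
Summed level in CPM of 4 marker lists in each library, with open circles for the male cKO library of animal 8 and the male WT library of animal 6. These 2 libraries stand highest for the olfactory bulb genes (1732 and 932), while no female library exceeds 231.

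Pcdh8 had the smallest p of the members in males. It was lowest at 40.9, median 45.5 and highest at 75.8 CPM in male cKO libraries. The male WT libraries had 62.1, 71.4, 76.9, 82.9 and 114 CPM. Of the 6 male cKO libraries 5 lay below every WT library, and that of animal 10 lay among them. The log2 value was -0.70 (SE 0.18, edgeR adjusted p = 0.162). It passed with DESeq2, which called 1.98% of all genes in males, at -0.69 with an adjusted p of 0.0301, and in a fit of all 4 groups at -0.70 with an edgeR adjusted p of 0.0263. The authors' deposited table, from the same counts and with DESeq2 named, lists -0.69 with an adjusted p of 0.0367.

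No type II gene was called in males. Cdh22 was lowest at 22.5, median 30.1 and highest at 60.0 CPM in male cKO libraries, and male WT libraries had 39.6, 45.3, 45.7, 71.4 and 83.5 CPM. Library 8 gave the value of 60.0 and was the only male cKO library inside the WT range. The log2 value was -0.76 (SE 0.27, edgeR adjusted p = 0.343) with that library and -1.02 (adjusted p = 0.0546) without it. Without both library 8 and WT library 6 it was -0.83 with an adjusted p of 0.112.

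Cdh24 was lowest at 5.07, median 7.77 and highest at 13.7 CPM in male cKO libraries, the highest again library 8. Male WT libraries had 9.70, 10.8, 11.4, 11.4 and 14.4 CPM. The log2 value was -0.52 (SE 0.22, edgeR adjusted p = 0.465), and without library 8 it passed at -0.74 with an adjusted p of 0.0490. Without both library 8 and WT library 6 it was -0.64 (adjusted p = 0.119). Cdh9 lay at -0.25 (SE 0.21) and Cdh11 at -0.20 (SE 0.20) in males, and the male groups overlapped for both. Without library 8 these values were -0.16 and -0.09. Cdh19 lay at 0.23 (SE 0.22) with that library and 0.10 without it.

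Pcdh19 in males was lowest at 36.0, median 60.2 and highest at 74.9 CPM in cKO libraries. Male WT libraries had 67.0, 72.7, 79.1, 87.7 and 93.5 CPM, and only the highest cKO library entered that range. The log2 value was -0.49 (SE 0.17, edgeR adjusted p = 0.318). Here library 8 was the lowest of the cKO libraries, and without it the value was -0.39.

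Cdh13 in males was lowest at 64.1, median 142 and highest at 179.8 CPM in cKO libraries, against 142, 162, 171, 180.2 and 189 CPM in WT libraries. The lowest value was that of library 8, which was far under the others. Without it, the log2 value moved to -0.18, against -0.32 (SE 0.20, edgeR adjusted p = 0.725) with it. Pcdh15 was lowest at 29.2, median 32.2 and highest at 55.3 CPM in male cKO libraries, against 40.3, 41.0, 42.4, 45.3 and 48.7 CPM in male WT libraries. Library 8 lay above the whole WT range and the other 5 cKO libraries below it. The log2 value was -0.27 (SE 0.15, edgeR adjusted p = 0.642), and it passed without library 8 at -0.45 with an adjusted p of 0.0263. Without both library 8 and WT library 6 it was -0.40 (adjusted p = 0.0554).

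Pcdh20 in males was lowest at 5.78, median 13.8 and highest at 40.2 CPM in cKO libraries, against 12.9, 20.7, 21.9, 29.7 and 31.3 CPM in WT libraries. Library 8 was above every WT library. The log2 value of -0.41 (SE 0.39, edgeR adjusted p = 0.873) was -0.85 without library 8, -0.22 without cKO library 13 and -0.71 (adjusted p = 0.427) without library 8 and WT library 6. Pcdh18 likewise had its highest male cKO value, 13.7 CPM, in library 8, and lay at -0.20 (SE 0.33) with it and -0.56 without it. Without cKO library 13, Pcdh18 lay at -0.06.

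The abundant members were not called in males either. Cdh2 had 41.6 to 88.3 CPM in male cKO and 51.3 to 106 CPM in male WT libraries, at a log2 value of -0.23 (SE 0.21). Pcdh1 had 173 to 207 CPM in male cKO and 156 to 291 CPM in male WT libraries, at -0.28 (SE 0.14). Pcdh10 had 146 to 304 CPM in male cKO and 208 to 429 CPM in male WT libraries, at -0.27 (SE 0.22). Cdh4, at -0.05 (SE 0.24), had its highest male value of 76.2 CPM in library 8, and lay at -0.27 without that library and at 0.11 without WT library 6. Without library 8, Cdh2 lay at -0.27, Pcdh1 at -0.28 and Pcdh10 at -0.33. Without cKO library 13 these values were -0.12, -0.26 and -0.16, and that of Cdh4 was 0.02. Of the male cKO libraries, library 13 was lowest for 11 of 29 members and highest for 1, where 29% and 28.8% of all genes were. Its oligodendrocyte markers summed to 12835 CPM, against 2505 to 7128 CPM in the other male cKO libraries. Among male WT libraries, library 5 was lowest for 14 members and highest for 2, where 25.5% and 26.5% of all genes were. WT library 3 was lowest for 1 and highest for 11, where 24.1% and 22.3% of all genes were. The groups overlapped for Cdh2, Pcdh1, Pcdh10 and Cdh4, and none of them passed edgeR's test.

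Leaving library 8 and WT library 6 out together, 24 of 29 members lay below 0 in males, the median was -0.23 and 0 members passed. WT library 3 and cKO library 9, at 557 and 445 CPM of the olfactory bulb list, stayed in that fit. The share of all genes below 0 was not computed for it, and was 47.9% with all male libraries. Without library 8 alone, 2 members passed, Cdh24 and Pcdh15, while the genes called in all rose to 201 from 94. Without any other single male library no member passed.

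**Figure D4:**
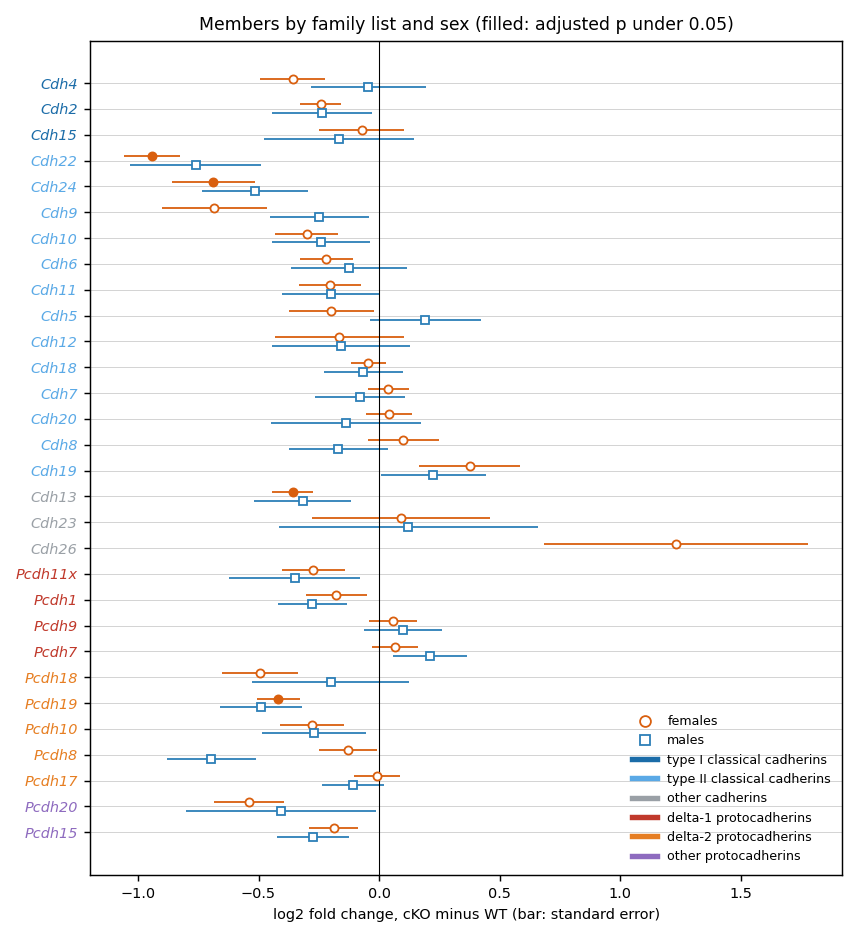
log2 fold change, cKO minus WT, of the 30 members tested, with standard errors, for females (circles) and males (squares), filled where the adjusted p was under 0.05. The 4 filled symbols, Cdh22, Cdh24, Cdh13 and Pcdh19, are all of females and below 0, and the male symbol lies on the same side for each.

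No member passed the test of a difference in the cKO effect between the sexes. In the fit of all 22 libraries, 0 of 31 members and 0 of 16855 genes passed with edgeR, and 0% with DESeq2, while 1 member and 1.04% of all genes had an unadjusted p under 0.05. The 1 member was Pcdh8, with a female minus male difference of 0.57 on the log2 scale (SE 0.23, unadjusted p = 0.0224, adjusted p = 0.999979). For the 4 genes called in females, the female minus male difference was -0.18 (SE 0.31) for Cdh22, -0.18 (SE 0.29) for Cdh24, -0.04 (SE 0.23) for Cdh13 and 0.07 (SE 0.20) for Pcdh19. Each error is larger than its difference, so differences of that size in either direction would not be seen.

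Across the 29 members tested in both sexes, 21 had log2 values below 0 in both, 4 above 0 in both and 4 of opposite sign. None was called in both sexes, where 0.418% of 15787 genes were. The share below 0 in both was 72.4%, against 33.1% of all genes. The correlation of female and male log2 values across members was 0.71 (Pearson) and 0.69 (Spearman), against 0.65 and 0.55 across all genes. Genes are not independent of each other, so these values carry no p, and each sex was scaled on its own. The clustered protocadherins, for comparison, had median log2 values of -0.61 in females and -0.58 in males over 53 genes tested, with 16 called lower in females and 1 in males. No test of the difference between the families was made.

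**Figure D5:**
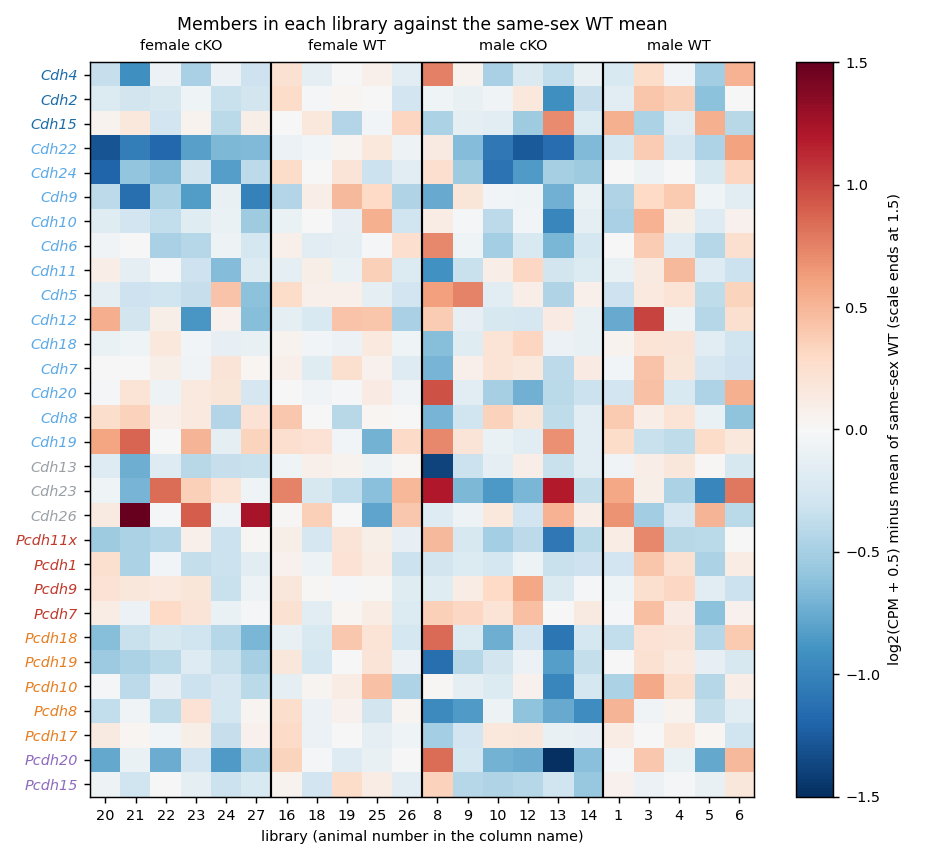
Members in every library, as log2(CPM + 0.5) minus the mean of the WT libraries of the same sex, with the colour scale ending at 1.5 either way. Cdh22 is below the WT mean in all 6 female cKO libraries and in 5 of 6 male cKO libraries, and the male cKO libraries of animals 8 and 13 hold members far from 0 on both sides.

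Of 23 catenins and associated genes, 2 fell in females, which is 8.70% where 3.37% of all genes were called, 0 rose, and 0 passed in males. The list's median log2 value was 0.02 in females and -0.07 in males. Ctnna2, encoding the neuronal alpha-catenin that links cadherins to actin, was lowest at 101, median 107 and highest at 114 CPM in female cKO libraries, against 118, 124, 127, 128 and 160.0 CPM in female WT libraries. These groups did not overlap, and the log2 fold change was -0.30 (SE 0.08, edgeR adjusted p = 0.0488). Wasf1, encoding a subunit of the WAVE complex, had 181 to 246 CPM in female cKO and 251 to 325 CPM in female WT libraries, at -0.36 (SE 0.09, edgeR adjusted p = 0.0434). These calls did not hold with 9 of 11 female libraries left out in turn for Ctnna2 and 7 of 11 for Wasf1, at adjusted p of up to 0.0907 and 0.113. In one fit of all 4 groups they did not pass either, at 0.103 and 0.0701.

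Ctnnb1, encoding beta-catenin, had 351 to 413 CPM in female cKO and 412 to 477 CPM in female WT libraries and did not pass, at a log2 value of -0.21 (SE 0.06, edgeR adjusted p = 0.0931) in females and -0.22 (SE 0.10, edgeR adjusted p = 0.523) in males. Ctnnd2, the neuronal delta-catenin gene, lay at 0.03 (SE 0.10) in females and 0.09 (SE 0.14) in males. Ctnnd1, encoding p120-catenin, lay at 0.01 (SE 0.17) in females and -0.41 (SE 0.13, edgeR adjusted p = 0.246) in males. The difference between sexes for this gene was not called.

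Of 10 genes for shedding and processing of cadherins, 2 fell in females, which is 20% where 3.37% of all genes were called, and 0 passed in males, where 0.584% of all genes did. Adam10, the protease that cuts N-cadherin at the cell surface, had 75.6 to 86.9 CPM in female cKO and 88.4 to 108 CPM in female WT libraries, without overlap, at -0.30 (SE 0.06, edgeR adjusted p = 0.0172). Pcsk5, a proprotein convertase, had 11.7 to 18.1 CPM in female cKO and 18.5 to 26.8 CPM in female WT libraries, also without overlap, at -0.64 (SE 0.13, edgeR adjusted p = 0.0158). Without WT library 19 the adjusted p was 0.0511 for Adam10 and 0.0523 for Pcsk5, and both passed without any other female library. In one fit of all 4 groups neither passed, at 0.0805 for Adam10 and 0.172 for Pcsk5.

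Of the other cadherin superfamily genes, 18 were tested in females and 2 fell, which is 11.1% where 3.37% of all genes were called. Fat3, an atypical cadherin known for shaping dendrites of retinal neurons, had 53.6 to 67.0 CPM in female cKO and 66.9 to 101 CPM in female WT libraries, at -0.49 (SE 0.09, edgeR adjusted p = 0.0125). Clstn2, encoding the synaptic calsyntenin-2, had 29.0 to 52.8 CPM in female cKO and 60.9 to 81.9 CPM in female WT libraries, without overlap, at -0.70 (SE 0.14, edgeR adjusted p = 0.0159). Fat3 passed without any of the 11 female libraries, and Clstn2 did so except without WT library 19, at an adjusted p of 0.0514. In one fit of all 4 groups Fat3 did not pass (adjusted p = 0.312) and Clstn2 did (0.0220). In males 17 were tested and 0 passed, with Fat3 at -0.40 (SE 0.26) and Clstn2 at -0.41 (SE 0.16).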

How the data were processed

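The authors deposited read counts per gene, as whole numbers, in a table for each sex. The submitters' processing notes name GRCm39 as the genome and cutadapt, STAR, HTSeq and DESeq2 as tools. What annotation, versions or strand setting were used is not given in the sources used here, so reads of overlapping or antisense genes may have been assigned to either gene. The 22 columns of the authors' normalized counts were not used. The authors' deposited log2 fold changes and their adjusted p-values are quoted only where named. They and the DESeq2 values given here come from the same counts, so they are not separate evidence.

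After filterByExpr (minimum count 10 and total 15) and TMM scaling, the quasi-likelihood test of edgeR 4.0.16 (with R 4.3.3 and limma 3.58.1) was run in each sex, and for the genotype by sex term in all 22 libraries. Benjamini-Hochberg adjustment ran over all genes tested, with 0.05 as threshold. A standard error is the log2 fold change divided by the root of the F statistic. CPM are TMM-scaled within each sex. Levels per kb use union exon lengths of GENCODE M21 on GRCm38, which may differ from the annotation the authors used. Promoters are those of RefSeq on GRCm38.p6. One column, numbered 20, was used as a female cKO replicate by its name and tied to no title.

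Values of single libraries are given for members past the threshold, the most abundant member of each family list, and up to 6 more with the largest change at a mean of at least 1 CPM. Partners past the threshold and 4 catenins are named too. Members and lists were chosen with earlier results of these data known. Alternatives were DESeq2 1.42.0, RLE factors, no filter, one fit of all 4 groups and leaving out each library. In all 50 pairs of libraries within a group the counts differed beyond sampling noise, with a chi-square of at least 5.81 per degree of freedom. Each library is labelled as a separate animal. The tests were checked on simulated counts. Figures were drawn with matplotlib 3.10.9.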

Additional observations from a re-analysis of the deposited data

Results flagged for a closer look

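In 15 of 132 sets of member values, 1 set per gene and group, the highest library lay so far from the next that Dixon's criterion was met. About 1 in 20 sets of independent, normally distributed values would meet it. The sets here are CPM without a log, drawn from the same 22 libraries, so that rate need not hold. Of the 15 sets, 9 were flagged for the male cKO library of animal 8, the library with the highest olfactory bulb genes. Its values there were 76.2 CPM for Cdh4, 60.0 for Cdh22, 55.3 for Pcdh15, 50.5 for Cdh6, 40.2 for Pcdh20, 32.5 for Cdh20, 13.7 for Pcdh18, 13.7 for Cdh24 and 2.76 for Cdh3. The other male cKO libraries reached at most 46.8 CPM for Cdh4, 34.7 for Cdh22 and 35.3 for Pcdh15.

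The other 6 were spread over 6 libraries. Male cKO library 10 had 75.8 CPM of Pcdh8, with the next highest at 52.4 CPM, and male cKO library 13 had 5.71 CPM of Cdh15. Female cKO library 20 had 3.42 CPM of Cdh1, library 21 had 0.376 CPM of Cdh3 and library 22 had 27.04 CPM of Cdh18. Female WT library 25 had 63.4 CPM of Cdh10, with the next highest at 43.4 CPM.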

How the results depend on the processing

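No paired analysis was possible because each animal has its own number and no number occurs in more than 1 group.

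With DESeq2 the genes called were 899 in females and 328 in males, and 6 members passed in females, with Cdh9 and Pcdh20 added, and 1 in males. With one fit of all 4 groups they were 294 in females and 276 in males, and 1 member passed in each sex, Cdh22 in females and Pcdh8 in males. The adjusted p in that fit was 0.153 for Pcdh19, 0.363 for Cdh13 and 0.105 for Cdh24 in females, and of the 6 partners named as fallen, Clstn2 alone passed in it. Without a filter on low counts, Cdh24 (adjusted p = 0.0517), Ctnna2 (0.0656) and Wasf1 (0.0523) did not pass in females. Leaving out 1 library at a time gave 324 to 681 genes called in females and 18 to 201 in males, the most without male cKO library 8, and 2 to 4 members in females and 0 to 2 in males. The count of 0 for the difference between sexes stayed 0 under every alternative run. No fold change reversed sign with a call on either side. Low counts kept Cdh1, Cdh3 and Pcdh12 out of edgeR's tests within each sex and Cdh26 out of its male test, so those tests say nothing of a change in them. Cdh1 did enter the test of a difference between the sexes and was not called. DESeq2 gave Cdh1 a log2 value of 2.01 in females (adjusted p = 0.0946). That value rests on few reads, at means of 0.972 CPM in female cKO and 0.243 CPM in female WT libraries. The setting that left out male cKO library 8 and male WT library 6 together gave 80 genes called in males, and it and the fits for partners were chosen after seeing the data.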
